A study of Anas platyrhynchos with 5 samples.

Results

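Epidermal and keratinocyte miRNAs were followed in small RNA libraries from feather bulbs of ducks (Anas platyrhynchos), the follicle bases from which feathers grow. The set was chosen by name and listed sequence: miR-205b-5p, miR-31-5p, miR-200a-3p, both arms of the mir-429 hairpin (miR-429-3p and miR-429-5p), miR-6564-3p, whose listed sequence is that of miR-184, and the 3p arm of a hairpin without a family number, whose listed sequence is that of miR-203. The last is called the miR-203 sequence here. Both identities rest on general knowledge of the vertebrate sequences, and neither was matched base by base to a reference. These are 7 of the 134 distinct mature miRNAs in the tables, from 6 of 73 hairpins.

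The series compares black with white bulbs. The black group has 2 libraries: Cui Hei, a breed with pure black plumage, and black bulbs of F2 ducks from a Kaiya-Liancheng cross, labelled white-black in plumage (black F2). The white group has 3 libraries: the pure white breeds Kaiya and Liancheng, and white bulbs of F2 ducks of the same cross, also labelled white-black (white F2). All ducks were 12 months old, 3 bulbs per duck were pooled, and ducks of 1 breed were then pooled into 1 library. The number of ducks per pool, and whether both F2 libraries drew on the same ducks, are not stated in the labels. Black and white F2 bulbs share a stock, while in the pure breeds colour and breed cannot be told apart. In such whole-bulb RNA fewer epithelial cells and less miRNA per cell cannot be told apart either. The libraries of a colour are pools of different stocks, so a p-value covers only the spread among pools.

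Between 1601329 (Liancheng) and 4269854 (Kaiya) reads fell on mature miRNAs. All levels below are raw read counts, shares of the mature reads (%), or CPM (reads scaled to a common library size) after TMM scaling, which corrects for differences in library composition. Each read stands for 1 mature miRNA of 21 to 23 bases, so levels of different miRNAs were compared without a length correction, and sequence-dependent capture was not corrected. Intervals are 95% exact (Clopper-Pearson or Poisson) and cover counting error only.

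A miRNA guides the silencing of mRNAs that pair with its seed, bases 2 to 8 from its 5′ end. In mammalian skin miR-205, miR-203 and the miR-200 family are characteristic of epithelial cells. miR-205 and the miR-200 family repress ZEB1 and ZEB2, repressors of E-cadherin, and in mouse epidermis miR-203 restrains p63 as keratinocytes leave the basal layer. miR-31 acts in the mouse hair follicle cycle, and in human corneal keratinocytes miR-184 opposes the action of miR-205 on the phosphatase SHIP2.

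The listed mature sequences show how the members differ where they pair with targets. Seeds are in capitals, and all were the same in the 5 tables.
miR-205b-5p: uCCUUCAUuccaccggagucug
miR-31-5p: aGGCAAGAuguuggcauagcug
miR-203 sequence: uGAAAUGUuuaggaccacuug
miR-6564-3p: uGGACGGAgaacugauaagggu
miR-200a-3p: uAACACUGucugguaacgauguu
miR-429-3p: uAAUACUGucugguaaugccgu
miR-429-5p: gUCUUACCaggcaaaguuagau

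No seed was shared between members, and 0 other listed miRNAs carried any of them. miR-200a-3p and miR-429-3p are the closest pair by sequence. Over 22 positions counted from the 5′ end, 18 were equal and 4 differed. Read from miR-200a-3p to miR-429-3p, the seed differed by C4U, and outside it C17U, A19C and U20C differed. The miR-203 sequence starts at base 40 of its listed hairpin and is preceded there by a g. A start 1 base earlier would move its seed by 1 base, so the seed printed for it holds for the listed start only.

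Their abundance spanned about 4 orders of magnitude, and miR-205b-5p led in every library. miR-205b-5p made up 7.63% of mature reads in Cui Hei and 8.07% in black F2, against 8.49% in Kaiya, 7.36% in Liancheng and 7.40% in white F2. It ranked between 3 and 5 among all mature miRNAs. miR-31-5p followed with 2.98% in Cui Hei and 3.62% in black F2, against 3.47% in Kaiya, 2.92% in Liancheng and 3.81% in white F2. The miR-203 sequence had 2.48% in Cui Hei and 3.48% in black F2, against 2.31% in Kaiya, 3.101% in Liancheng and 3.77% in white F2. These 3 thus lay within a few percent of all reads each, and the ranges of the colours overlapped for all of them.

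**Figure D1:**
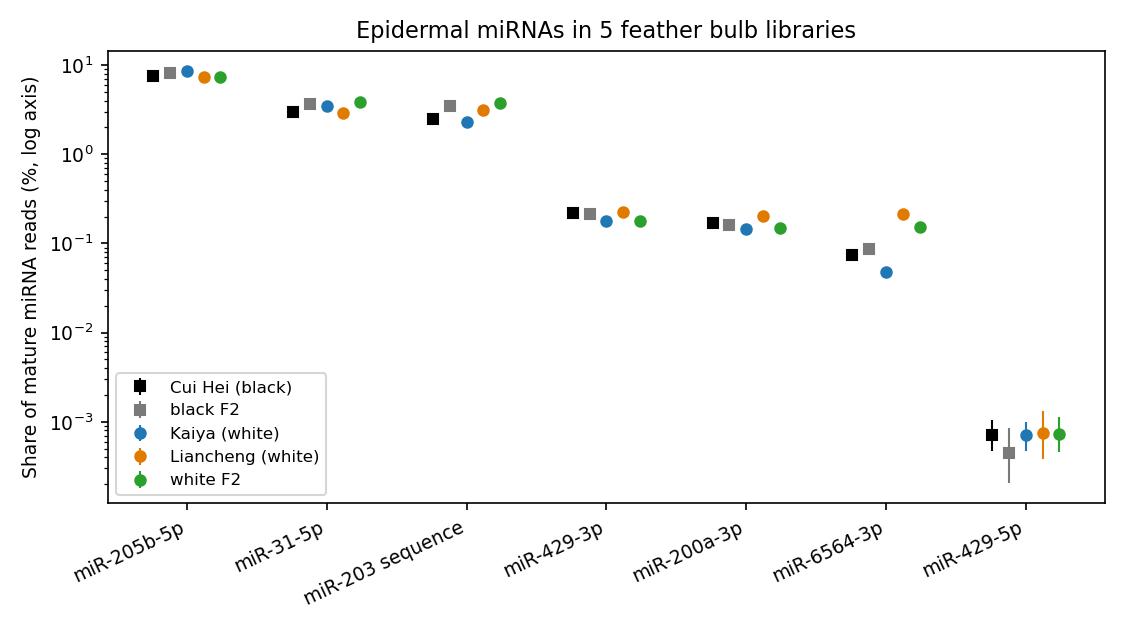
Share of mature miRNA reads (%, log axis) for each epidermal miRNA in each library. Squares are black and circles white libraries, and bars are 95% counting intervals. miR-205b-5p lies between 7.36% and 8.49%, and miR-429-5p lies under 0.001%.

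The other members formed a lower tier. miR-429-3p averaged 0.204% ± 0.0227 of mature reads, miR-200a-3p 0.165% ± 0.0234 and miR-6564-3p 0.114% ± 0.0671 (SD, n = 5 libraries). miR-429-5p, the minor arm of its hairpin, rested on 9 to 30 reads per library.

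The order by mean share was miR-205b-5p, miR-31-5p, miR-203 sequence, miR-429-3p, miR-200a-3p, miR-6564-3p and miR-429-5p, and Cui Hei, black F2 and Kaiya each followed it. Neighbouring members were compared by the log2 ratio of their reads in the same library. miR-31-5p and the miR-203 sequence were close, with a mean log2 ratio of 0.17 ± 0.27 (SD, n = 5), and Liancheng had them the other way round. miR-200a-3p and miR-6564-3p did not separate beyond their spread either (0.72 ± 0.75), being reversed in Liancheng and white F2. The remaining neighbours kept their order in all 5 libraries. Among them miR-205b-5p over miR-31-5p had 1.22 ± 0.17, the miR-203 sequence over miR-429-3p 3.87 ± 0.35, and miR-429-3p over miR-200a-3p 0.31 ± 0.0953.

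Together the 7 took 13.6% of mature reads in Cui Hei and 15.6% in black F2, against 14.6% in Kaiya, 14.0% in Liancheng and 15.5% in white F2. The means were 14.6% ± 1.47 in black (SD, n = 2) and 14.7% ± 0.718 in white libraries (SD, n = 3), a difference of -0.112 percentage points. The exact two-sided permutation test gave p = 1, and 2 against 3 libraries cannot give less than 0.2. The black libraries hold both the lowest and the highest summed share, so the colours overlap.

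miR-200a and miR-429 lie in 1 cluster in chicken and human, next to mir-200b. No other member of that family was among the names in the tables. The listed hairpins show the arms in capitals around the loop.
mir-200a: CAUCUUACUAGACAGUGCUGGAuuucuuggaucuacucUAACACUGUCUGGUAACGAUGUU
mir-429: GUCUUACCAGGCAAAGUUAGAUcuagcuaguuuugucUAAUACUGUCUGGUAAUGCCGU

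The ratio of the pair's 3p arms lay between 0.755 and 0.892. For every read of miR-429-3p there were 0.768 reads of miR-200a-3p in Cui Hei (5879 and 7658 reads) and 0.755 in black F2 (3222 and 4269 reads). In the white libraries the ratio was 0.798 in Kaiya (6146 and 7697 reads), 0.892 in Liancheng (3247 and 3639 reads) and 0.821 in white F2 (4196 and 5111 reads). miR-429-3p was thus the higher of the pair in all 5 libraries, and the Liancheng interval (0.851 to 0.936) lay above those of Cui Hei (0.742 to 0.794), black F2 (0.721 to 0.790) and Kaiya (0.772 to 0.826).

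The log2 ratio averaged -0.39 ± 0.017 in black (SD, n = 2) and -0.26 ± 0.083 in white libraries (SD, n = 3). Both black values lay below all white ones, a difference of -0.14. The counting intervals of both black ratios nevertheless overlapped those of Kaiya and of white F2 (0.788 to 0.855 in white F2). How many other pairs of miRNAs separated the colours in this way was not counted. With p = 0.2 by the exact two-sided permutation test, the smallest value this design can give, the test cannot separate the colours. Over the 5 libraries the SD of this log2 ratio was 0.0953, the smallest of the 15 pairs among the 6 members with at least 100 CPM. For scale, 2.01% of all 2485 pairs of the 71 miRNAs at that level had a smaller SD, and the median over these pairs was 0.323. The next steadiest pair of members, miR-205b-5p and miR-31-5p, had an SD of 0.166. The ratios of miR-429-3p to some miRNAs outside the set, among them miR-22-3p, miR-30e-1-5p and miR-15c-1-5p, had an SD under 0.0953. A steady ratio was thus not particular to miR-200a-3p and miR-429-3p. Whether mismatched reads could be counted for the other member of the pair is not stated in the files or labels.

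**Figure D2:**
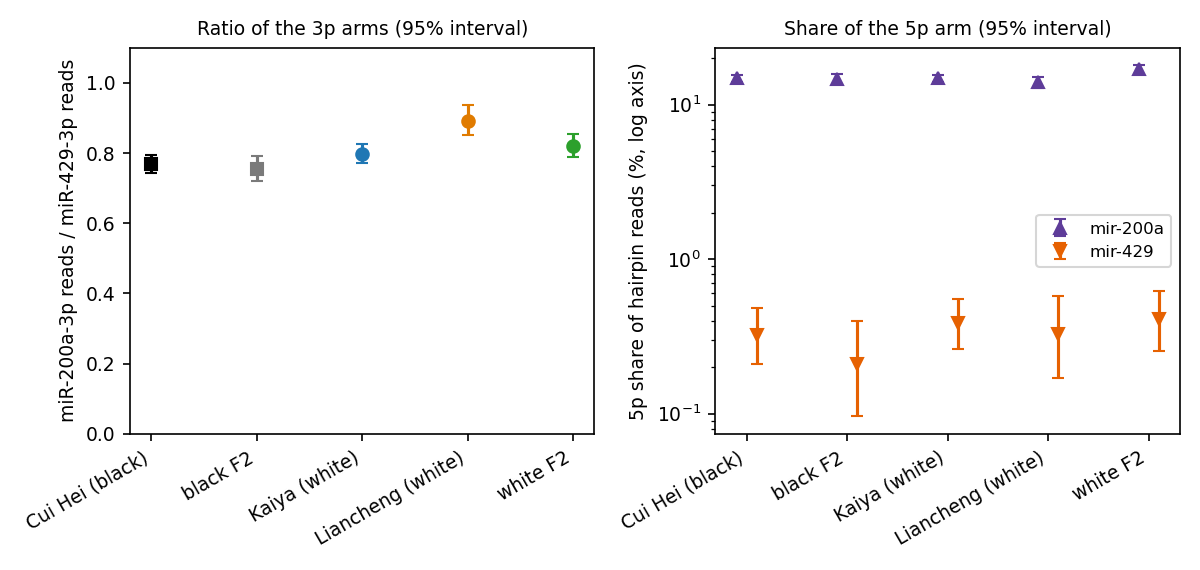
Left, reads of miR-200a-3p per read of miR-429-3p in each library. Right, share of the 5p arm among mature reads of each hairpin (%, log axis). Bars are 95% counting intervals. The ratio lies between 0.755 and 0.892, and the 5p share between 14.0% and 16.9% for mir-200a and between 0.210% and 0.409% for mir-429.

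The 5p arms of the pair differed far more than the 3p arms. miR-200a-5p held 14.8% of its hairpin's mature reads in Cui Hei and 14.7% in black F2, against 14.8% in Kaiya, 14.0% in Liancheng and 16.9% in white F2. miR-429-5p held 0.325% in Cui Hei (interval 0.211% to 0.480%) and 0.210% in black F2 (0.0962% to 0.399%). Kaiya had 0.388% (0.262% to 0.554%), Liancheng 0.329% (0.170% to 0.573%) and white F2 0.409% (0.253% to 0.625%). Each library therefore had a 5p arm of mir-200a well above that of mir-429, while the intervals of miR-429-5p overlap among libraries.

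In the other hairpins 1 arm also dominated, with a mean minor share of 0.0611% ± 0.0161 for miR-205b-3p, 0.638% ± 0.141 for miR-31-3p and 1.01% ± 0.234 for the 5p arm beside the miR-203 sequence (SD, n = 5). miR-6564-5p had 3 reads over the 5 libraries. The minor shares of mir-31 and of the miR-203 sequence hairpin were lowest in the F2 libraries. miR-31-3p had 0.537% in black F2 and 0.441% in white F2, against 0.708% in Cui Hei, 0.751% in Kaiya and 0.754% in Liancheng. The 5p arm beside the miR-203 sequence had 0.879% in black F2 and 0.679% in white F2, against 1.21% in Cui Hei, 1.23% in Kaiya and 1.06% in Liancheng. In both hairpins the intervals of the F2 libraries lay below those of the pure breeds, with no test of stock made. The share of all hairpins with F2 libraries apart from the pure breeds was not counted. Outside the set, mir-126 also had its minor 3p share lowest in the F2 libraries, so the pattern was not particular to these hairpins. In mir-125b and mir-30e-1 the F2 libraries were apart too, there with the minor 3p share highest in them.

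The arm balance was compared between colours with limma on the log2 ratio of 5p to 3p reads. Over the 27 hairpins with at least 50 reads per arm on average, 0 passed an adjusted p of 0.05, and 0 had an unadjusted p under 0.05. The differences were -0.05 ± 0.25 (SE) for mir-200a, -0.09 ± 0.35 for mir-205b, 0.03 ± 0.31 for mir-31 and 0.10 ± 0.32 for the miR-203 sequence hairpin. All 4 differences are within their SE. mir-429 fell short of that minimum. With 50 reads summed over the libraries it had a difference of -0.50 ± 0.30 (limma adjusted p 0.930 over 39 hairpins). The difference was -0.21 without black F2 and -0.79 without Cui Hei. In that fit 3 of the 39 hairpins had an unadjusted p under 0.05 and 1 was called. The call was mir-204 (1.58 ± 0.29, limma adjusted p 0.0138), whose 3p arm had 1 to 3 reads per white library.

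None of the 7 members passed the test between black and white bulbs. By edgeR's quasi-likelihood test over 114 miRNAs, all 7 were tested, 0 were called, and 0 had an unadjusted p under 0.05. The background is 2 calls, 1.75% of the miRNAs tested, both on the hairpin of the melanocyte-linked miR-204. The DESeq2 Wald test also gave 2 calls. In 6 members the log2 fold change was negative and in 1 positive, with a median of -0.18. Over all 114 miRNAs 61 were negative and the median was -0.031.

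The 3 most abundant members were close between colours. miR-205b-5p averaged 74267 ± 4280 CPM in black (SD, n = 2) and 80481 ± 7536 CPM in white libraries (SD, n = 3), a log2 fold change of -0.12 ± 0.15 (SE) that turned to 0.019 with library size alone. miR-31-5p averaged 31256 ± 4838 CPM in black and 35445 ± 6238 CPM in white libraries (-0.18 ± 0.21, and -0.0097 without Cui Hei). The miR-203 sequence averaged 28220 ± 7207 CPM in black and 31891 ± 8549 CPM in white libraries (-0.18 ± 0.28, with a positive sign without Cui Hei or without white F2). Each of these differences is at or under its SE.

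The pair also differed by less than its SE. miR-429-3p averaged 2056 ± 0.263 CPM in black and 2026 ± 202 CPM in white libraries (0.022 ± 0.15), and the small black SD is below the counting error of either library. This value was negative with upper-quartile scaling (-0.10) and without Kaiya or white F2. miR-200a-3p averaged 1565 ± 18.6 CPM in black and 1703 ± 272 CPM in white libraries (-0.12 ± 0.18), with a positive sign without Liancheng and with library size alone.

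miR-429-5p was the single member with both black libraries below all white ones, and 0 members had black above. It had 6.71 CPM in Cui Hei and 4.34 CPM in black F2, against 7.29 CPM in Kaiya, 7.43 CPM in Liancheng and 8.03 CPM in white F2. The separation was lost without TMM scaling, where Cui Hei over Kaiya had a log2 ratio of 0.033. Such a pattern with black below was found in 7.89% of the miRNAs tested, a share that leaves out those with black above. The log2 fold change of miR-429-5p was -0.42 ± 0.29 (edgeR adjusted p 0.971), -0.17 without black F2 and -0.78 without Cui Hei.

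**Figure D3:**
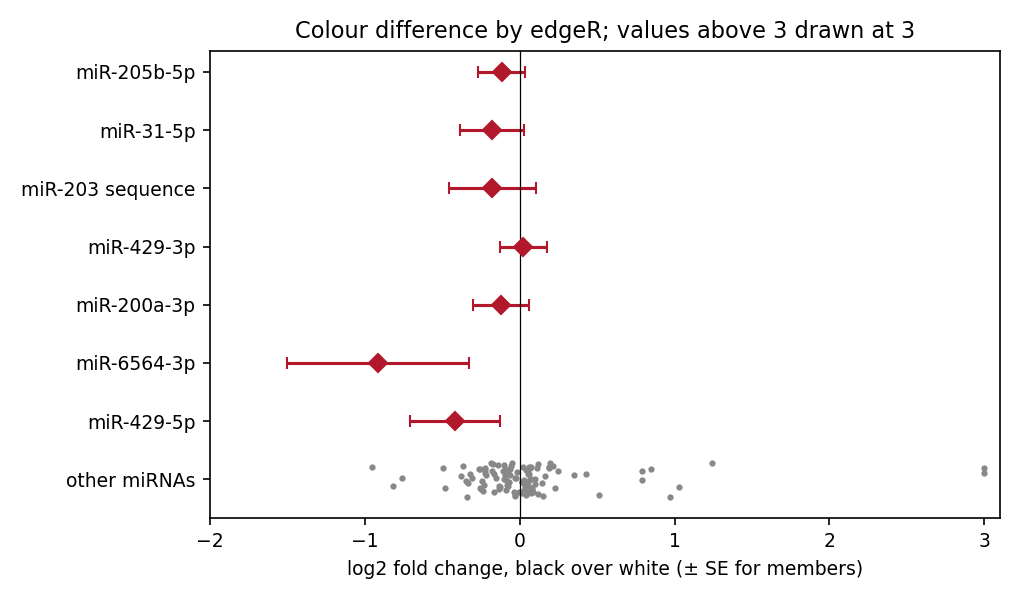
log2 fold change of black over white libraries by edgeR, with SE for the 7 epidermal miRNAs (diamonds) and as grey dots for the other miRNAs tested. Except for miR-6564-3p at -0.91 and miR-429-5p at -0.42, the members lie between -0.18 and 0.022. The arms of miR-204, above 3, are drawn at 3.

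miR-6564-3p varied most among the members. It had 685 CPM in Cui Hei (2551 reads) and 821 CPM in black F2 (1705 reads). In the white libraries it had 494 CPM in Kaiya (2033 reads), 2103 CPM in Liancheng (3396 reads) and 1663 CPM in white F2 (4351 reads). Kaiya was therefore the lowest of all and Liancheng the highest, and the white range enclosed both black values. Its log2 fold change was -0.91 ± 0.59 (SE), with an edgeR adjusted p of 0.971. Without Kaiya the value was -1.34 and passed the test (adjusted p 0.0376), and without Liancheng it was -0.45 (adjusted p 0.903). Its adjusted p lay between 0.0376 and 1.000 over all settings tried.

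Between single libraries, where there is no replicate check, miR-6564-3p was the member that reached a log2 ratio of 1 in either direction, the size criterion named in the study's design text, among the 6 members with at least 100 reads over both libraries. In the F2 cross the ratio of black over white was -1.02 (interval -1.10 to -0.94), against a background of 4.08% of miRNAs reaching that size. With DESeq2 size factors it was -0.98 and with library size alone -0.84, both short of 1. Cui Hei over Liancheng gave -1.62 (background 9%) and Cui Hei over Kaiya 0.47 (background 4.9%), so the sign in the pure breeds depended on which white breed was taken. Kaiya over Liancheng, both white, gave -2.09 (interval -2.17 to -2.01, background 11.3%). Cui Hei over black F2 gave -0.26, and no member reached the size there (background 1.96%). The difference between the 2 white parental breeds was thus larger than that between black and white F2 bulbs.

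Against its parental breeds, black F2 had a log2 ratio of 0.73 to Kaiya and -1.36 to Liancheng, and white F2 1.75 to Kaiya and -0.34 to Liancheng. Both F2 levels lay between those of the parental breeds, black F2 nearer to Kaiya and white F2 nearer to Liancheng. The Liancheng library also had the lowest summed level of the erythroid miR-144 arms, 79.9 CPM, against 222.8 to 455 CPM elsewhere. Its part in the result was not tested.

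**Figure D4:**
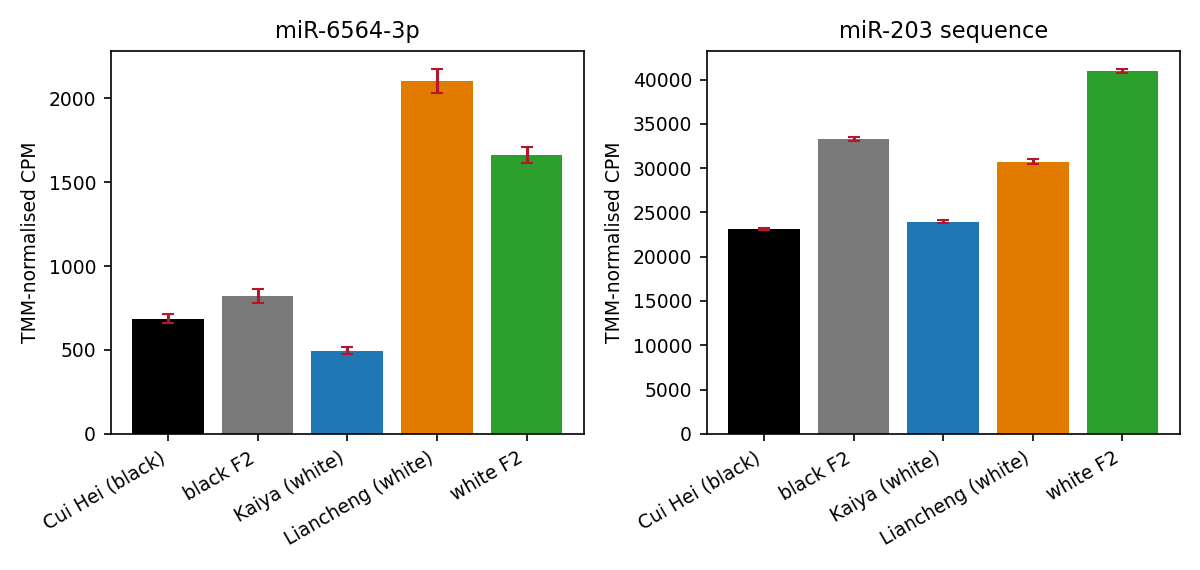
TMM-normalised CPM of miR-6564-3p (left) and of the miR-203 sequence (right) in each library, with 95% Poisson intervals. miR-6564-3p runs from 494 CPM in Kaiya to 2103 CPM in Liancheng, and the miR-203 sequence from 23124 CPM in Cui Hei to 40953 CPM in white F2.

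The abundant miR-203 sequence and miR-31-5p spanned smaller ranges. The miR-203 sequence had 23124 CPM in Cui Hei and 33316 CPM in black F2, against 23970 CPM in Kaiya, 30751 CPM in Liancheng and 40953 CPM in white F2. Both F2 libraries were above all pure breeds, with black F2 at a log2 ratio of 0.47 to Kaiya and 0.12 to Liancheng, and white F2 at 0.77 to Kaiya and 0.41 to Liancheng. The 5p arm of the same hairpin stayed between 280 and 329 CPM, so its library pattern did not follow that of the 3p arm. Both F2 libraries were above all pure breeds outside the set too, as for miR-146b-1,2-5p, miR-148a-3p and miR-27b-3p. The share of all miRNAs with this pattern was not counted, and it is not particular to the miR-203 sequence. miR-31-5p had 27835 CPM in Cui Hei and 34677 CPM in black F2, against 35990 CPM in Kaiya, 28953 CPM in Liancheng and 41393 CPM in white F2. White F2 was highest for both, also by share. Cui Hei was lowest for both in TMM-scaled CPM, whereas by share of mature reads Liancheng was lowest for miR-31-5p and Kaiya for the miR-203 sequence.

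miR-200a-3p and miR-429-3p were lowest in Kaiya, at 1494 and 1871 CPM, and highest in Liancheng, at 2011 and 2254 CPM. By share of mature reads miR-429-3p was at 0.180% in both white F2 and Kaiya, with white F2 marginally the lower. The Kaiya over Liancheng log2 ratio was -0.43 for miR-200a-3p and -0.27 for miR-429-3p, while miR-205b-5p and miR-31-5p had the opposite sign, 0.27 and 0.31. Within the F2 cross the black over white ratio was -0.047 for miR-200a-3p (interval -0.11 to 0.020) and 0.074 for miR-429-3p (0.015 to 0.13), against -0.26 for miR-31-5p and -0.30 for the miR-203 sequence. These F2 ratios depended on the scaling. With library size alone they were 0.13 for miR-200a-3p, with its sign turned, 0.26 for miR-429-3p, -0.073 for miR-31-5p and -0.12 for the miR-203 sequence. No breed was therefore high or low in all members.

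**Figure D5:**
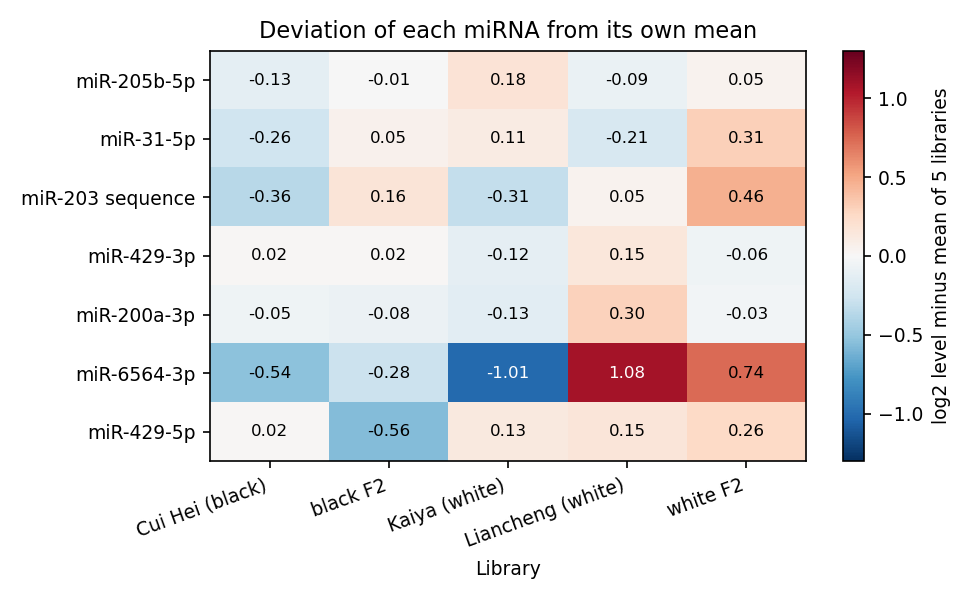
log2 level of each epidermal miRNA in each library minus its own mean over the 5 libraries. Red is above and blue below the mean. miR-6564-3p spans -1.01 in Kaiya to 1.08 in Liancheng, whereas miR-429-3p stays between -0.12 and 0.15.

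The SD of the log2 level over the 5 libraries put the members at both ends of the series. miR-429-3p (0.10) held place 8 from the least variable of 114 miRNAs, miR-205b-5p (0.12) place 14 and miR-200a-3p (0.17) place 31. miR-31-5p (0.24) held place 53, miR-429-5p (0.32) place 69, the miR-203 sequence (0.34) place 76 and miR-6564-3p (0.88) place 105. The median over the 114 was 0.258. Single libraries carried some of these values: the SD was 0.044 for miR-200a-3p without Liancheng, 0.099 for miR-429-5p without black F2, 0.079 for miR-205b-5p without Kaiya and 0.066 for miR-429-3p without Liancheng. With library size alone the SD of miR-429-3p was 0.16. Highest over lowest library, miR-429-3p differed 1.20-fold, miR-205b-5p 1.24-fold and miR-6564-3p 4.26-fold.

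Likeness of pattern was measured as the root mean square difference of the centred log2 levels over the 5 libraries. The candidates were the 62 miRNAs of at least 100 CPM that were neither members nor their partner arms. Members were thus not compared with each other here, and a member can lie nearer to another than the miRNAs named below. The median over those 62 was 0.208 to 0.350 for 6 of the members and 0.770 for miR-6564-3p. Nearest to miR-205b-5p were miR-10b-1-5p (0.0817), miR-130a-3p (0.0922) and miR-19a-1,2-3p (0.0942). Nearest to miR-31-5p were miR-367-3p (0.0995), miR-9-5p (0.107) and an arm without a family number (0.136). For the miR-203 sequence they were miR-30e-1-3p (0.0806), miR-1552-5p (0.0858) and miR-148a-3p (0.0910). miR-22-3p was near both miR-429-3p (0.0641) and miR-200a-3p (0.0883). The others near miR-429-3p were miR-30e-1-5p (0.0673) and miR-15c-1-5p (0.0685), and near miR-200a-3p miR-1662-5p (0.0773) and miR-15c-2-5p (0.104). The nearest to miR-6564-3p were farther off, with miR-21-5p (0.442), miR-9-3p (0.480) and miR-181b-1-3p (0.489). miR-429-5p, limited by its reads, was nearest to miR-181b-1,2-5p (0.195), miR-23b-3p (0.210) and miR-19a-1,2-3p (0.226).

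Other miRNAs described in skin also gave 0 calls, against 2 of all 114 miRNAs tested (1.75%). Over all 114, 61 were negative, with a median of -0.031. That median was 0.103 with library size alone and -0.158 with upper-quartile scaling. With both arms of the 6 hairpins the keratinocyte and epithelium list had 11 tested miRNAs. Of these 0 were higher and 0 lower in black, 10 were negative and the median was -0.16. That list includes the 7 members, so its signs largely repeat theirs. In the list of other skin miRNAs (miR-21, miR-22, miR-23b, miR-27b, miR-125b, miR-146b, miR-214 and miR-449) 0 of 16 were higher and 0 lower, 11 were negative and the median was -0.16. miR-22, miR-214 and miR-146b are also in the dermal mesenchyme or leukocyte lists below. Its largest values were those of the miR-449c arms, a family known from ciliated epithelia, where miR-449c-2-5p averaged 63.2 ± 30.5 CPM in black libraries (SD, n = 2) against 88.0 ± 18.9 CPM in the white ones (SD, n = 3), a log2 fold change of -0.48 ± 0.37. miR-449c-1-5p had -0.37 ± 0.21 and miR-449c-2-3p -0.32 ± 0.34, each with an edgeR adjusted p of 0.971.

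Among markers of other cells, both miR-204 arms passed the test, with a summed 8813 to 11723 CPM in black and 104 to 121 CPM in white libraries. In the dermal mesenchyme (4 tested), erythroid (2), leukocyte (2), endothelial (2), muscle (2) and neural (4) lists 0 passed. Over all 114 miRNAs 2 passed (1.75%), these same arms, so 0 in lists this short says little about those cells. The erythroid, leukocyte, endothelial and muscle lists rested on miR-144, miR-146b, miR-126 and miR-499 alone. The dermal mesenchyme list rested on miR-22 and miR-214, and the neural list on miR-9 and miR-128. The summed miR-144 level, from red blood cells, was 391 to 455 CPM in black and 79.9 to 277 CPM in white libraries, and its part in the colour values above was not tested. The liver miRNA miR-122 was not among the names. The summed level of the epithelial list itself was 127320 CPM in Cui Hei and 150520 CPM in black F2, against 152770 CPM in Kaiya, 140020 CPM in Liancheng and 168770 CPM in white F2. These sums depend on the TMM scaling. By summed share of mature reads, the 7 members stood at 15.6% in black F2 and 15.5% in white F2.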

How the data were processed

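Per the file headers, the authors deposited for each library the hairpins with raw read counts per mature miRNA, per hairpin, and of reads outside the listed arms. The series' design text names miRDeep2 2.1.2 for the clean reads. The submitters' processing notes also name Bowtie 0.12.2 and FastQC. No genome build is given in the sources used here. The deposited CPM equalled the count scaled to a common total to within 0.005, and every hairpin total equalled its parts.

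The raw count of each mature name was used (the highest where a name is listed several times, which concerns no member). A hairpin not listed for Kaiya was taken as 0. Black (n = 2) and white (n = 3) libraries were compared with edgeR 4.0.16 (R 4.3.3; TMM, filterByExpr, quasi-likelihood test, Benjamini-Hochberg over 114 miRNAs, threshold 0.05), and arms with limma 3.58.1 (pseudocount 0.5) over hairpins whose arms carry 1 name. For edgeR, SE are the log2 fold change over the root of its F statistic. Single values used exact two-sided permutation tests (checked with scipy 1.17.1). Single libraries were compared by ratio with no test. The floor was 3 reads, 0.703 to 1.87 CPM. The procedures were also run on simulated independent libraries with known changes. These do not model pools of different breeds within a colour, so they check the code and not the design. DESeq2 1.42.0 and the other settings are given with the dependence on processing.

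Named are all members and their partner arms, and the 3 miRNAs outside these that were nearest to each member in pattern. Marker list members that passed and the 3 largest values among other skin miRNAs are named too, as are single miRNAs that show a pattern outside the set. The members and lists were chosen with earlier results of these data known.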

Additional observations from a re-analysis of the deposited data

Results flagged for a closer look

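Reads that fell on the hairpin of the miR-203 sequence but outside its listed arms, which no comparison used, came to 113 over the 5 libraries. They were above the limit of 3 reads in every library, with 22 in Cui Hei and 18 in black F2, against 27 in Kaiya, 6 in Liancheng and 40 in white F2. As a share of the hairpin's reads they made up 0.0252% (95% Clopper-Pearson interval 0.0158% to 0.0382%) in Cui Hei and 0.0258% (0.0153% to 0.0408%) in black F2. In the white libraries the share was 0.0270% (0.0178% to 0.0393%) in Kaiya, 0.0120% (0.0044% to 0.0260%) in Liancheng and 0.0371% (0.0265% to 0.0505%) in white F2. The other member hairpins had at most 2 such reads in a library.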

How the results depend on the processing

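The count of calls over all miRNAs was 2 under every planned setting except without Kaiya, where miR-6564-3p made it 3, and members were called under no other setting. Library size alone turned miR-205b-5p to 0.019 and miR-200a-3p to 0.0074, and upper-quartile scaling turned miR-429-3p to -0.10. Under these scalings the median over all miRNAs was 0.103 and -0.158, against -0.031 with TMM. On leaving out each library the log2 fold change ran from -0.45 to 0.097 for the miR-203 sequence, -0.045 to 0.13 for miR-429-3p, -0.22 to 0.043 for miR-200a-3p and -1.34 to -0.45 for miR-6564-3p. The summed share difference ran from -1.15 to 0.927 percentage points, positive without Cui Hei and without white F2. The miR-200a-3p to miR-429-3p difference ran from -0.17 to -0.089. Its sign could not turn on leaving out a library, because both black values lie below all white ones. The arm differences ran from -0.12 to 0.046 for mir-200a, -0.32 to 0.25 for mir-205b, -0.17 to 0.29 for mir-31, -0.15 to 0.34 for the miR-203 sequence hairpin and -0.79 to -0.21 for mir-429, whose lower read minimum was chosen after seeing the data. The causes were not tested. The order by mean share was the same in all 6 alternatives, but the shares themselves depended on how repeated names were counted. With all lines of a name summed, the mean share of miR-205b-5p fell from 7.79% to 6.83%. That of miR-31-5p fell from 3.36% to 2.94% and that of miR-429-3p from 0.204% to 0.179%, and the other members fell too. The labels give no replicate numbers that pair the colours, and a fit with stock (pure breed or F2) as a block gave 2 calls. miR-429-5p is limited by its depth.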
